A study of Mus musculus with 8 samples.

Results

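The genes described here are 10 genes of hepatic stellate cells and fibroblasts, measured in the livers of KK-Ay mice fed a persimmon peel (PP) extract. They are the fibrillar collagen chains Col1a1, Col1a2 and Col3a1, the small proteoglycans Dcn and Lum, and Reln, Des, Acta2, Timp1 and Lrat. Every probe set whose annotation gave 1 of these symbols and no other was taken, which gave 20 probe sets of the 45037 that measured transcripts on the array, for 10 of the 18193 genes with a symbol. The collagens had 7 of the 20 probe sets and the other 7 genes had 13. KK-Ay mice carry the yellow allele of agouti and are an obese model of type 2 diabetes. Total liver RNA of 4 PD mice and 4 CD mice, all male and 14 weeks old, was hybridized to GeneChip mouse arrays (Affymetrix), each mouse on its own array. PD mice had received an AIN-93G diet with 1 g of PP extract per kg for 8 weeks, and CD mice the same diet without the extract. The mice were those whose plasma total ketone bodies lay near their group's average, so the spread between them may be smaller than that of all mice fed the diets.

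Hepatic stellate cells lie between the hepatocytes and the endothelium of the sinusoids and store vitamin A as retinyl esters in lipid droplets. In liver injury they turn into contractile myofibroblasts that secrete type I and type III collagen, and with portal fibroblasts they are the source of the matrix laid down in fibrosis. Lrat makes the stored retinyl esters, Des is an intermediate filament protein of rodent stellate cells, Reln is a secreted glycoprotein that marks these cells, Acta2 is the smooth muscle actin of activated stellate cells and of vessel walls, and Timp1 is an inhibitor of matrix metalloproteinases.

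The sequences around the start of 3 genes are given because the results turn on them: Col3a1 and Col1a2, whose probe sets of highest level ran alike across the 8 mice, and Lrat, which followed another order of the mice. Each runs 5′ to 3′ on the gene's strand and covers 250 bases before to 50 after the start annotated by RefSeq on GRCm38.p6, at chr1:45311288-45311587 (plus strand) for Col3a1, chr6:4505368-4505667 (plus strand) for Col1a2 and chr3:82903925-82904224 (minus strand) for Lrat. Capitals mark the letters CCAAT, the letters TATAAA, and also the letters GGGCGG, each searched on both strands, and no 2 matches overlap.
Col3a1: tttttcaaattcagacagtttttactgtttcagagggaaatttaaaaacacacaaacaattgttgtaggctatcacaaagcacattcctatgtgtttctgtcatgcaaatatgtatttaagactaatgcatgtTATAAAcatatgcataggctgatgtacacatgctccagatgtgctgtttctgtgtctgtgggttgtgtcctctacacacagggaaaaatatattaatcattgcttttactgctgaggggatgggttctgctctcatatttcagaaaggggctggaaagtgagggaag
Col1a2: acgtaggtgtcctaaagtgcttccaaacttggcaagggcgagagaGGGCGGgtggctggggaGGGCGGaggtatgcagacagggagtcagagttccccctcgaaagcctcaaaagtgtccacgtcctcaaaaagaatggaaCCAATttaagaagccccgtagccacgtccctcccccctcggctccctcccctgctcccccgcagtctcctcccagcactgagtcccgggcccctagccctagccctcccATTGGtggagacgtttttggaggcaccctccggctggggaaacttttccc
Lrat: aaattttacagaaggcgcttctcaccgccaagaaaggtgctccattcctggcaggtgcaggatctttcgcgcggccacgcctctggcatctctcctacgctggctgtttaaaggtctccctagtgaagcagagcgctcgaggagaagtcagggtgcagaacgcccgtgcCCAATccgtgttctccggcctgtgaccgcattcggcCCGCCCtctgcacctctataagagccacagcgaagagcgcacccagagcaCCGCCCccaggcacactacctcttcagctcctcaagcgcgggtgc

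The Col3a1 window held a single TATAAA, starting 117 bases before the annotated start, and neither of the other motifs. The Col1a2 window held 2 CCAAT motifs, at −109 and, on the opposite strand, at 1, and 2 GGGCGG motifs at −205 and −188, where 1 is the annotated first base. The Lrat window held a CCAAT at −81 and 2 GGGCGG motifs on the opposite strand at −45 and 6. Among 32851 promoter windows of this length, 37.4% held CCAAT, 13.6% TATAAA and 35.7% GGGCGG, so a match is common. Col3a1 and Col1a2 thus shared none of the 3 motifs in these windows, which says nothing of motifs outside them. A promoter window was found for 7 of the 10 genes.

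The values are log2 model-based expression indices, and a difference is PD minus CD on that scale. A probe set was called when its rank product, taken over all 16 ways to set 1 PD array against 1 CD array, had a false discovery rate (FDR) under 0.1. Over all probe sets, 97 (0.215%) were called higher and 117 (0.26%) lower in PD mice. Differences were also tested against the spread between mice, with limma across all probe sets. Limma called 0 (0%) at an adjusted p under 0.1 in either direction, while 1642 (3.65%) had an unadjusted p under 0.05. The PD and CD mice did not overlap for 937 probe sets (2.08%). With 4 mice against 4, exact permutation tests cannot give a two-sided p under 0.0286.

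Of the 20 probe sets, 1 was called higher in PD mice and 0 lower, 2 had an unadjusted limma p under 0.05, and 0 had groups that did not overlap. The called probe set measured Col3a1, and the 2 with an unadjusted p under 0.05 both measured Lrat. With the probe set of highest mean level taken for each gene, 6 of the 10 genes had a higher mean in PD mice and 4 a lower one, with a median difference of 0.08, against −0.01 over all 18193 genes, of which 46.5% had a higher mean in PD mice. The median was 0.17 over the 3 collagens and 0.05 over the other 7 genes. In whole liver RNA, fewer cells of a type and less RNA per cell cannot be told apart.

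**Figure D1:**
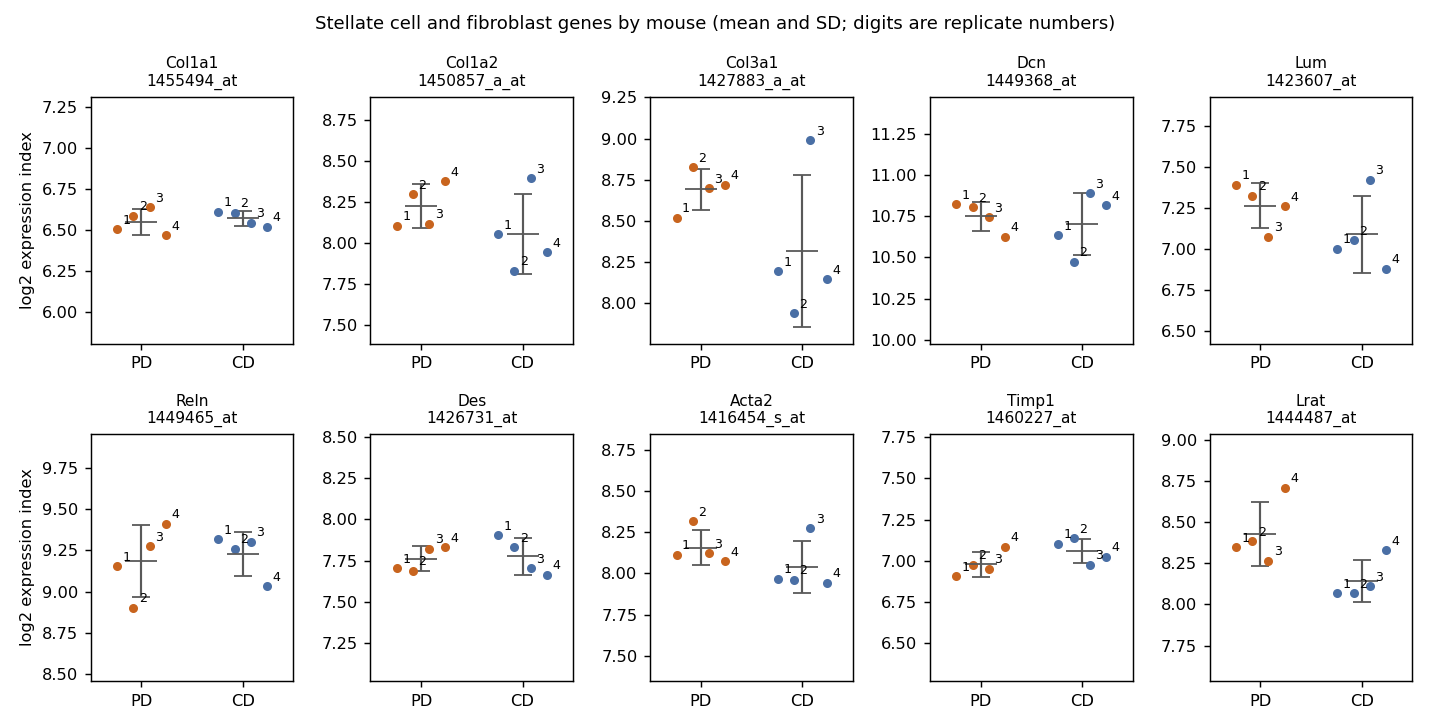
Log2 expression index (vertical axis, each panel spanning the same range) of the 10 genes in PD mice (left, orange) and CD mice (right, blue), with the probe set of highest mean level for each gene; points are single mice with their replicate numbers, and bars are the mean and SD of 4 mice. CD replicate 3 stands above the other CD mice for Col3a1 (8.99), Col1a2, Dcn, Lum and Acta2, and the groups overlap in every panel.

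Col3a1, which encodes the chain of type III collagen, was measured by 2 probe sets. On 1427883_a_at the PD mice had 8.52, 8.83, 8.70 and 8.72, and the CD mice had 8.20, 7.94, 8.99 and 8.15. The 4 PD mice thus lay above 3 of the 4 CD mice and below CD replicate 3, which had the highest level of the 8. Col3a1 rose in PD mice by the rank product, with 8.69 ± 0.13 in PD and 8.32 ± 0.46 in CD mice (SD, n = 4 each), a difference of 0.37 (SE 0.24, 1.29-fold, FDR 0.0209). Set against the spread between mice, the difference had an unadjusted p of 0.0686 and an adjusted p of 0.998 in limma, and p = 0.143 in the two-sided exact permutation test. The SD of the CD mice was 3.64 times that of the PD mice.

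The rank product does not set a difference against the spread between mice, and Col3a1 was among the more variable probe sets. Its SD within groups was 0.34, above that of 99.0% of all probe sets, whose median was 0.08, and the median of the probe sets called higher was 0.39. Without CD replicate 3 the Col3a1 difference was 0.60 (FDR 2.14e-04, and an unadjusted p of 4.40e-05 in limma). Its call was lost without PD replicate 2 (0.33, FDR 0.16), PD replicate 3 (0.37, FDR 0.15), PD replicate 4 (0.36, FDR 0.13) or CD replicate 2 (0.25, FDR 0.161). Without PD replicate 1, CD replicate 1 or CD replicate 4 it was called, with differences of 0.43, 0.33 and 0.32.

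The second Col3a1 probe set, 1427884_at, gave 6.49, 6.32, 6.25 and 6.13 in PD mice and 6.11, 5.91, 6.35 and 6.33 in CD mice. Here PD replicate 1 and not CD replicate 3 was the highest, and CD replicate 2 was again the lowest. The difference was 0.13 (SE 0.13), with an FDR of 0.873 by the rank product. Over the 8 mice the pair of Col3a1 probe sets had a Pearson r of 0.55 (exact permutation p = 0.158) and a Spearman rho of 0.43 (exact permutation p = 0.299). This probe set lay in the lowest 25% of mean levels on the arrays, as did 6 of the 20 probe sets, and no detection calls were used here to tell such levels from background.

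Col1a2, the second chain of type I collagen, was measured by 3 probe sets, of which 1450857_a_at had the highest level. It gave 8.11, 8.30, 8.12 and 8.38 in PD mice and 8.05, 7.83, 8.40 and 7.94 in CD mice. As for Col3a1, CD replicate 3 was the highest of the 8 mice and CD replicate 2 the lowest, and the PD mice lay above the other CD mice. Col1a2 had 8.22 ± 0.13 in PD and 8.06 ± 0.24 in CD mice (SD, n = 4 each), a difference of 0.17 (SE 0.14, FDR 0.557, exact permutation p = 0.286), and was not called. Without CD replicate 3 its difference was 0.28, and without CD replicate 2 it was 0.09.

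The other Col1a2 probe sets did not follow 1 pattern. On 1423110_at the PD mice had 6.48, 6.60, 6.44 and 6.50 and the CD mice 6.33, 6.35, 6.58 and 6.38, a difference of 0.09 (SE 0.07). On 1446326_at the PD mice had 6.49, 6.43, 6.68 and 6.58 and the CD mice 6.69, 6.80, 6.52 and 6.55, a difference of −0.10 (SE 0.08). The first of these was high in CD replicate 3 as 1450857_a_at was, whereas the second was highest in CD replicate 2, in which the others were low.

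Col1a1, the first chain of type I collagen, showed no difference that exceeded its standard error on either probe set. On 1455494_at the PD mice had 6.50, 6.59, 6.64 and 6.47 and the CD mice 6.61, 6.61, 6.55 and 6.52, a difference of −0.02 (SE 0.05). On 1423669_at the PD mice had 6.13, 6.18, 6.13 and 6.24 and the CD mice 6.11, 6.11, 6.31 and 6.05, a difference of 0.02 (SE 0.06). CD replicate 3 was again the highest mouse on 1423669_at, and both Col1a1 probe sets lay in the lowest 25% of mean levels.

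**Figure D2:**
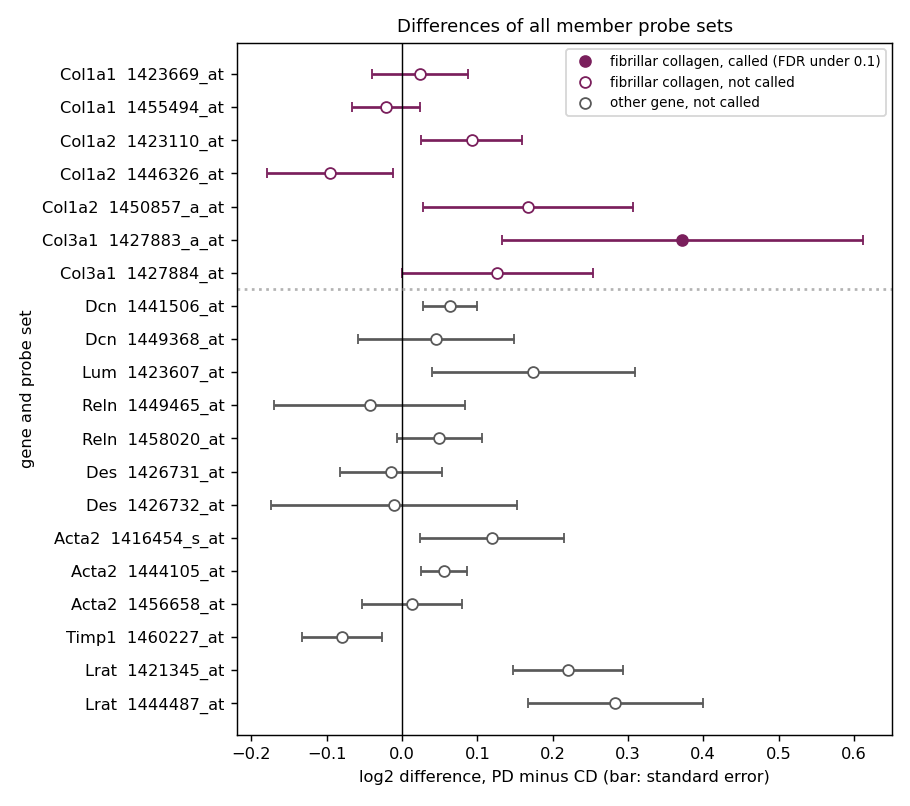
Log2 difference, PD minus CD (horizontal axis), of the 20 probe sets of the 10 genes, with bars of 1 standard error; collagens are purple and above the dotted line, other genes grey, and a filled point was called at an FDR under 0.1. Only Col3a1 1427883_a_at is filled, at 0.37, and the 2 Lrat probe sets, at 0.22 and 0.28, have the next largest differences.

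Lrat, the enzyme that esterifies retinol for storage, had 2 probe sets that gave the same picture. On 1444487_at the PD mice had 8.35, 8.38, 8.27 and 8.71 and the CD mice 8.07, 8.07, 8.11 and 8.33. PD replicate 4 was the highest mouse, and the groups overlapped only because CD replicate 4 lay above PD replicate 3. The means were 8.43 ± 0.19 in PD and 8.14 ± 0.13 in CD mice (SD, n = 4 each), a difference of 0.28 (SE 0.12, 1.22-fold, FDR 0.169, unadjusted limma p = 0.0130, exact permutation p = 0.0571).

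On the second Lrat probe set, 1421345_at, the PD mice had 7.69, 7.76, 7.81 and 7.95 and the CD mice 7.47, 7.58, 7.56 and 7.71. Again PD replicate 4 was the highest of the 8 mice, and the groups overlapped only through CD replicate 4, which lay above PD replicate 1. The difference was 0.22 (SE 0.07, 1.17-fold, FDR 0.372, unadjusted limma p = 0.00720, exact permutation p = 0.0571), and the adjusted p in limma was 0.998 for both Lrat probe sets. Lrat was therefore not called by either test. Without CD replicate 4 the rank product called 1444487_at (0.35, FDR 0.056). The unadjusted limma p stayed between 0.00257 and 0.0235 for 1421345_at and between 0.00425 and 0.0358 for 1444487_at with each mouse left out.

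Over the 8 mice the Lrat probe sets had a Pearson r of 0.92 (exact permutation p = 0.00255) and a Spearman rho of 0.81 (exact permutation p = 0.0218), and r was 0.80 without PD replicate 4 and CD replicate 1. Probe sets of 1 gene often differed more than this. Of the 12 such pairs among the genes, 4 had an r above 0.5 and 4 an r below 0, and the Col1a2 probe sets 1423110_at and 1446326_at had an r of −0.78 (exact permutation p = 0.0256) and a rho of −0.81 (exact permutation p = 0.0218).

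Lum, lumican, a proteoglycan that binds collagen fibrils, had 7.39, 7.32, 7.08 and 7.26 in PD mice and 7.00, 7.05, 7.42 and 6.88 in CD mice. CD replicate 3 was the highest mouse and the other CD mice lay below all PD mice, as on Col3a1 1427883_a_at and Col1a2 1450857_a_at. The difference was 0.17 (SE 0.13, FDR 0.519, exact permutation p = 0.286), and it was not called. It was 0.28 (FDR 0.11) without CD replicate 3 and 0.10 without CD replicate 4. Dcn, decorin, a related proteoglycan, had 10.82, 10.80, 10.74 and 10.63 in PD mice and 10.64, 10.47, 10.89 and 10.82 in CD mice on 1449368_at, a difference of 0.05 (SE 0.10). Here too CD replicate 3 was the highest of the 8 mice and CD replicate 2 the lowest. The other Dcn probe set, 1441506_at, differed by 0.06 (SE 0.04).

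Acta2, smooth muscle actin, had 8.11, 8.32, 8.12 and 8.07 in PD mice and 7.97, 7.96, 8.27 and 7.94 in CD mice on 1416454_s_at, a type of probe set that can detect more than 1 gene. CD replicate 3 stood apart from the other CD mice, which lay below all PD mice, and PD replicate 2 was the highest of the 8. The difference was 0.12 (SE 0.10, FDR 0.963, exact permutation p = 0.343), and leaving out CD replicate 3 made it 0.20 (FDR 0.423) while leaving out PD replicate 2 made it 0.07. The other Acta2 probe sets, both in the lowest 25% of mean levels, differed by 0.06 (1444105_at, SE 0.03) and 0.01 (1456658_at, SE 0.07). The mean of 14 markers of portal fibroblasts, mesothelium and vascular smooth muscle, relative to its mean over the 8 mice, lay between −0.02 and 0.00 in PD mice and between −0.02 and 0.05 in CD mice, with CD replicate 3 at −0.01.

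Des and Reln, also genes of stellate cells, gave small differences. Des had 7.70, 7.69, 7.82 and 7.83 in PD mice and 7.90, 7.83, 7.70 and 7.66 in CD mice on 1426731_at, a difference of −0.01 (SE 0.07). On 1426732_at the difference was also −0.01 (SE 0.16), with PD replicates 1 and 2 at 6.84 and 6.95 below all CD mice and PD replicates 3 and 4 at 7.47 and 7.37 above them. Reln had 9.15, 8.90, 9.27 and 9.41 in PD mice and 9.32, 9.26, 9.30 and 9.03 in CD mice on 1449465_at, a difference of −0.04 (SE 0.13). The second Reln probe set, 1458020_at, differed by 0.05 (SE 0.06), and neither Des nor Reln separated the diets.

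Timp1 was the gene with the largest difference below 0 among the 10. It had 6.91, 6.98, 6.95 and 7.09 in PD mice and 7.10, 7.14, 6.97 and 7.02 in CD mice on 1460227_at, a difference of −0.08 (SE 0.05, exact permutation p = 0.171). The Timp1 levels of the groups overlapped, and it was not called lower. No sign among the 20 differences changed under 3 other scalings of the arrays, and 13 of the 20 kept their sign with each mouse left out. The 7 that changed sign were both probe sets of Col1a1 and of Des, and 1 each of Dcn, Reln and Acta2, all with differences between −0.04 and 0.05.

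**Figure D3:**
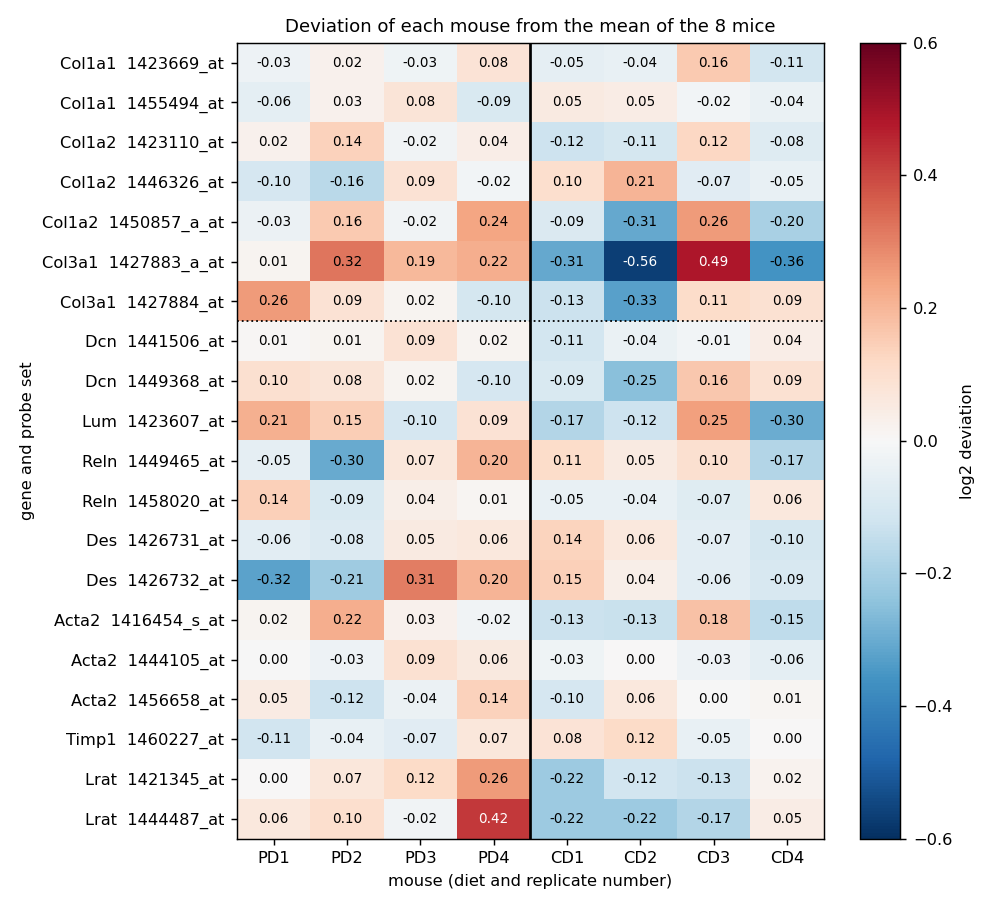
Deviation of each mouse from the mean of the 8 mice (colour and printed value, log2), for the 20 probe sets (rows) in the 4 PD mice (left of the line) and the 4 CD mice. CD replicate 3 is at 0.49 and CD replicate 2 at −0.56 for Col3a1 1427883_a_at, and the same mice have the highest and lowest values for Col1a2 1450857_a_at and Dcn 1449368_at, while Lrat is highest in PD replicate 4.

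The fibrillar collagens were compared with the other genes as the mean over genes of the deviation from each gene's mean of the 8 mice. The collagen mean was −0.03, 0.17, 0.08 and 0.12 in PD mice and −0.11, −0.28, 0.24 and −0.20 in CD mice. The mean of the other 7 genes was 0.02, 0.02, −0.00 and 0.10 in PD mice and −0.04, −0.07, 0.06 and −0.08 in CD mice. Both means were highest among CD mice in CD replicate 3, and the groups overlapped for both.

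The difference was 0.17 (SE 0.12) for the collagens and 0.07 (SE 0.04) for the other genes. It was not shared by the 3 collagens, which differed by 0.37 (Col3a1), 0.17 (Col1a2) and −0.02 (Col1a1), so Col3a1 contributed most. The other 7 genes ranged from −0.08 (Timp1) to 0.28 (Lrat). Collagens minus others differed by 0.10 between the diets (SE 0.09), and the groups overlapped for this gap too. The gap was 0.18 without CD replicate 3 and 0.05 without CD replicate 2. With the mean of all probe sets of each gene the gap was 0.04, from 0.10 for the collagens and 0.06 for the others.

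**Figure D4:**
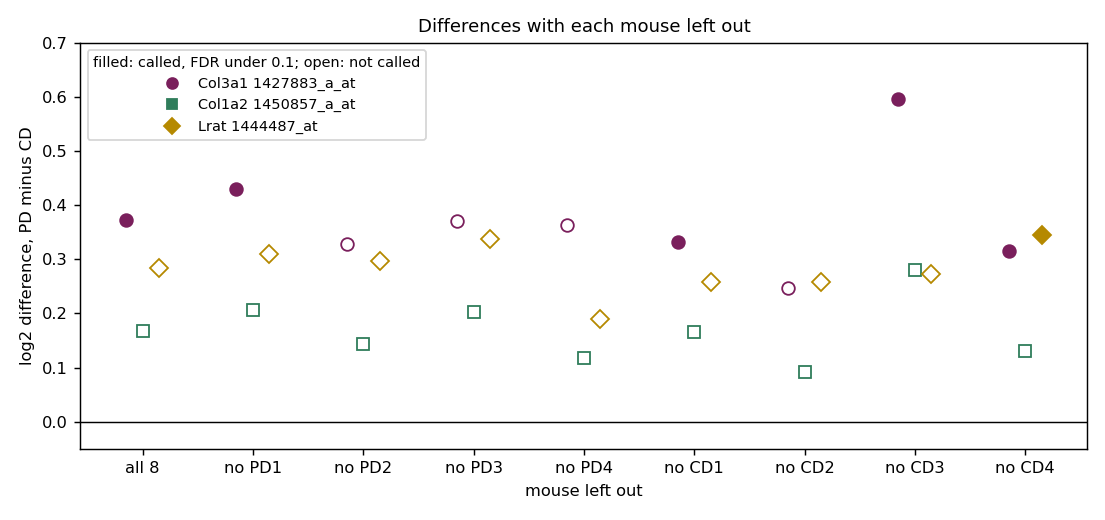
Log2 difference, PD minus CD (vertical axis), of Col3a1 1427883_a_at (circles), Col1a2 1450857_a_at (squares) and Lrat 1444487_at (diamonds) with all 8 mice and with each mouse left out (horizontal axis); filled points were called at an FDR under 0.1. Col3a1 ranges from 0.25 without CD replicate 2 to 0.60 without CD replicate 3 and is called in 4 of the 8 settings with a mouse left out, and Lrat is called only without CD replicate 4.

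Some of these genes ran alike across the mice. Over the 8 mice, the Pearson r with Col3a1 1427883_a_at was 0.93 for Col1a2 1450857_a_at (rho = 0.98), 0.91 for Col1a2 1423110_at (rho = 0.88), 0.89 for Acta2 1416454_s_at (rho = 0.88), 0.80 for Col1a1 1423669_at (rho = 0.90) and 0.77 for Lum (rho = 0.79). Exact permutation p-values of r were 0.00151, 0.00298, 0.00372, 0.0140 and 0.0358 in that order, and those of rho were 3.97e-04, 0.00724, 0.00724, 0.00456 and 0.0279. No relation passed after Benjamini-Hochberg adjustment over all 45036 other probe sets, of which 7.70% had an unadjusted p under 0.05, and the adjusted p of Col1a2 1450857_a_at was 0.52. Its r was the 27th highest of the 45036.

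These 5 relations were the only ones of the 19 examined with an unadjusted p under 0.05. The Col1a1 probe set of highest level, 1455494_at, was not among them, with an r of −0.20 (rho = −0.19, exact permutation p = 0.628 and 0.665). With the mice farthest from the median of Col3a1, CD replicates 2 and 4, left out, the 5 values of r lay between 0.67 (Lum) and 0.90 (Col1a2 1423110_at). With each diet's mean subtracted they lay between 0.69 (Lum) and 0.92 (Col1a2 1450857_a_at). With 1 mouse left out, the exact p of Lum exceeded 0.05 in 5 of 8 settings and that of Col1a1 1423669_at without CD replicate 3 (0.0637).

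The relations of Lrat to Col3a1 did not reach this threshold. Its probe sets had an r of 0.38 (1444487_at, rho = 0.43, exact permutation p = 0.361 and 0.299) and 0.41 (1421345_at, rho = 0.26, exact permutation p = 0.312 and 0.536), and with each diet's mean subtracted r was −0.00 and −0.02. CD replicate 3, the highest mouse for Col3a1, had 8.11 for Lrat 1444487_at, below all PD mice. Timp1 (r = −0.61, rho = −0.50) and Col1a2 1446326_at (r = −0.64, rho = −0.62) had negative values, with exact permutation p-values of r of 0.108 and 0.0845.

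The markers of other liver cells were set beside this pattern. The mean of 14 Kupffer cell and macrophage markers, relative to its mean over the 8 mice, lay between −0.02 and 0.07 in PD mice and was −0.21, −0.27, 0.21 and 0.16 in CD mice. It was thus highest in CD replicate 3 and lowest in CD replicate 2, as Col3a1 was, but high in CD replicate 4, in which Col3a1 was low, and its part in the collagen values was not tested. Of these markers 10 were higher and 4 lower in PD mice, with a median difference of 0.07 and 0 called. Leaving out CD replicate 3 gave a median of 0.16, and leaving out CD replicate 4 gave 0.12. It was 0.04 once PD replicate 2 was dropped, and it fell below 0 when CD replicate 1 (−0.00) or CD replicate 2 (−0.01) was. The largest difference was that of Cd5l at 0.13 (SE 0.25). Cd5l was called without CD replicate 3 (0.24, FDR 0.0788) or CD replicate 4 (0.29, FDR 0.0929), and without CD replicates 1 or 2 its difference was −0.00 and −0.01.

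Of 12 endothelial markers 3 were higher and 9 lower, with a median of −0.03 and 0 called, the largest difference being that of Lyve1 (0.18, SE 0.25), which was called without CD replicate 3 (0.37, FDR 0.0476). The medians were −0.01 over 6 cholangiocyte markers, −0.05 over 6 T and B cell markers, 0.01 over 3 adipocyte markers and −0.00 over the 14 markers of portal fibroblasts, mesothelium and vascular smooth muscle, with 0 called in each and largest differences in Krt7 (−0.06), Cd4 (−0.12), Retn (−0.03) and Eln (−0.11). The tissue label held for the hepatocyte markers, with albumin (Alb) at 14.73 ± 0.02 in PD and 14.74 ± 0.04 in CD mice (SD, n = 4 each). Over 9 hepatocyte markers the median was −0.00, and Tat, which degrades tyrosine, was called lower in PD mice (−0.44, SE 0.16, FDR 0.0306), a call lost without PD replicate 4 (−0.30) or CD replicates 1 (−0.41), 2 (−0.43) or 3 (−0.47).

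Further stellate cell markers differed in both directions. Of 15 such genes 8 were higher and 7 lower in PD mice, with a median of 0.04 and 0 called. With 1 mouse left out the median lay between 0.00 (without PD replicate 1) and 0.06 (without CD replicate 3), and it was 0.01 without PD replicate 4 or CD replicate 2. The largest difference was that of Pdgfrb, the receptor for platelet-derived growth factor, with 7.61, 7.43, 7.37 and 7.46 in PD mice and 7.20, 7.01, 7.63 and 7.26 in CD mice. Pdgfrb thus had the same highest and lowest mice as Col3a1 1427883_a_at and Col1a2 1450857_a_at. The same also held for Dcn 1449368_at and for Col14a1, from the list of other collagens (9.22 in CD replicate 3 and 8.53 in CD replicate 2). Pdgfrb had a difference of 0.19 (SE 0.14, FDR 0.418), was called without CD replicate 3 (0.31, FDR 0.0663), and differed by 0.10 without CD replicate 2. Gfap and Hand2, which also mark stellate cells, differed by −0.05 and −0.02. Ank3 and Tcf21, of the same list, differed by 0.15 (SE 0.09) and 0.14 (SE 0.11). Gfap, Hand2, Ank3, Tcf21 and Col14a1 were chosen for naming after their values had been seen.

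The lists of other collagens and of their processing gave medians near 0. Of 14 other collagens 6 were higher and 8 lower, with a median of −0.02 and 0 called, and Col4a1, a basement membrane collagen, had the largest difference (−0.17, SE 0.12). Of 17 genes for collagen modification, folding, secretion and cross-linking 11 were higher and 6 lower, with a median of 0.01 and 0 called, and P3h1, a prolyl hydroxylase, had the largest difference (−0.10, SE 0.04). Col5a2, a chain of the fibrillar type V collagen, was the only 1 of the 14 other collagens with an unadjusted limma p under 0.05 (0.0344, across all probe sets). Its mean was 7.00 ± 0.04 in PD and 7.13 ± 0.09 in CD mice (SD, n = 4 each), a difference of −0.13 (SE 0.05). The groups narrowly failed to overlap, with the highest PD mouse at 7.038 and the lowest CD mouse at 7.040. Col5a2 was not called, with an FDR of 0.954 by the rank product and an adjusted p of 0.998 in limma. Col5a3, another chain of that collagen, differed by −0.16 (SE 0.09) and Col5a1 by 0.04 (SE 0.06). The differences of Col4a1, P3h1, Col5a2 and Col5a3 were thus opposite in sign to that of Col3a1. The 6 other collagens that were higher, among them Col6a1 (0.13, SE 0.18), had the sign of Col3a1. So had the 11 higher genes of collagen processing, among them Pcolce (0.09, SE 0.08). The type V chains, Col6a1 and Pcolce were chosen for naming after their values had been seen.

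Of 14 matrix proteases and inhibitors 5 were higher and 9 lower (median −0.01, largest Mmp2 at −0.18), and of 15 other matrix proteins 10 were higher and 5 lower (median 0.02, largest Thbs2 at −0.15), with 0 called in either list. Of 22 genes of TGF-beta and PDGF signaling, which drive stellate cell activation, 11 were higher and 11 lower (median −0.01, 0 called). Ccn2, a matricellular protein induced by TGF-beta, had the largest difference there (−0.24, SE 0.25), which was called lower without PD replicate 2 (−0.42, FDR 0.0315).

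Beside Lrat, 18 other genes of retinoid storage and metabolism were measured, of which 9 were higher and 9 lower, with a median of 0.00, 1 called higher and 0 called lower. Rarb, a retinoic acid receptor, was called higher in PD mice, with 7.00, 7.01, 7.00 and 7.47 in PD mice and 6.60, 6.82, 6.68 and 6.97 in CD mice. The groups did not overlap, and PD replicate 4 and CD replicate 4 were the highest mice of their groups, as they were for Lrat. The difference was 0.35 (SE 0.14, FDR 0.0552), with an unadjusted p of 0.0105 and an adjusted p of 0.998 in limma across all probe sets.

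The Rarb call was lost at an FDR under 0.05 and without any 1 of the 4 PD mice or CD replicate 1, with differences between 0.24 (without PD replicate 4) and 0.40. Bco1, which cleaves beta-carotene, differed by 0.15 (SE 0.07) and Lpl, a lipoprotein lipase, by −0.30 (SE 0.16), with unadjusted limma p-values of 0.0452 and 0.0338, and neither was called. Cyp26a1, which degrades retinoic acid, ranged from 7.45 to 8.89 in PD mice and from 7.44 to 8.18 in CD mice and was highest in PD replicate 4, with a difference of 0.21 (SE 0.40). Among CD mice Cyp26a1 was highest in CD replicate 2 (8.18) and not in CD replicate 4 (8.10), unlike Lrat and Rarb. Bco1, Lpl and Cyp26a1 were chosen for naming after their values had been seen.

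**Figure D5:**
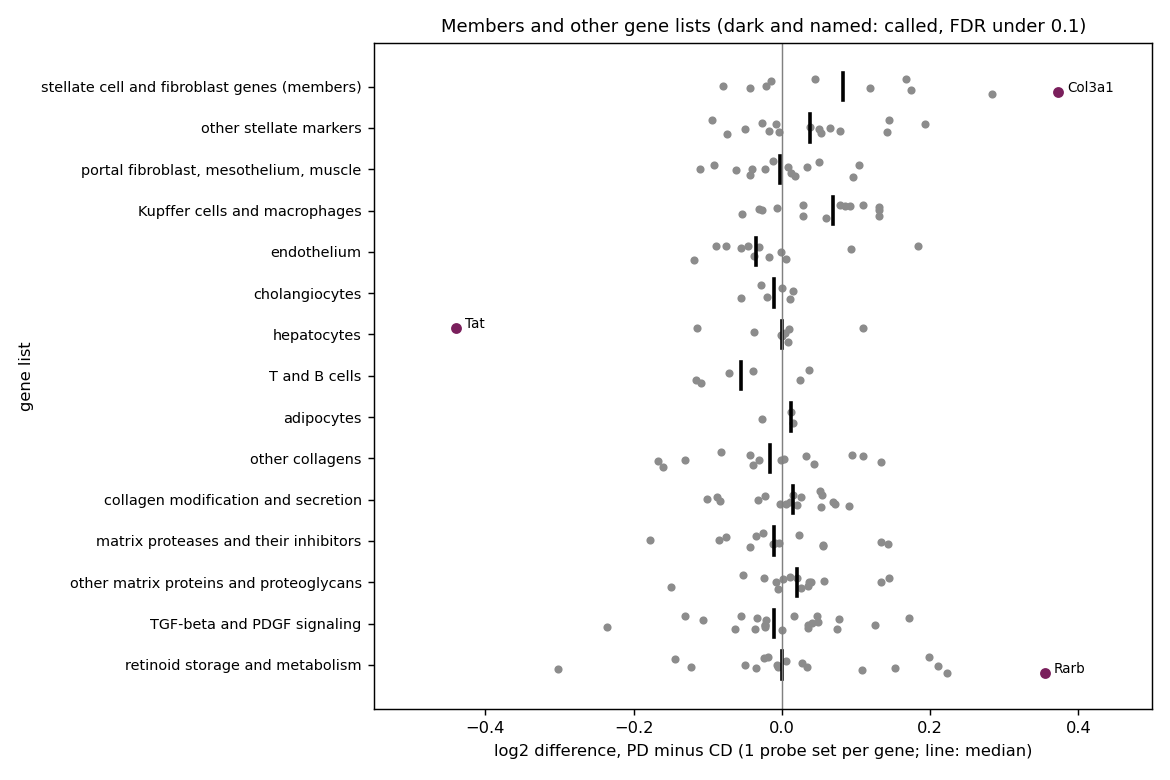
Log2 difference, PD minus CD (horizontal axis), of the 10 stellate cell and fibroblast genes (top row) and of the genes of each other list (rows), with 1 probe set per gene; points are genes, black lines medians, and dark named points were called at an FDR under 0.1. The calls are Col3a1 at 0.37, Rarb at 0.35 and Tat at −0.44, and the median of the 10 genes is 0.08.

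Outside the stellate cell and fibroblast genes described here, the genes most like the collagen mean over the 8 arrays, among those whose mean level lay above the median, were Gpd2 (Pearson r = 0.98), Tbc1d8b (0.97), Igsf5 and Arf1 (0.96 each), Arl1, Ide and Strn (0.94 each), Tnfaip1 (0.93), and Ipo9 and Napg (0.92 each). Genes of the other lists were not left out of this search, and none of them was among those named. The values of r describe 8 arrays and were picked from all genes for being high. The differences of the 10 genes between the diets were smaller than that of Col3a1 and lay between 0.03 (Strn) and 0.15 (Gpd2, SE 0.12).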

How the data were processed

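Liver RNA of 4 PD and 4 CD mice was measured on 1 array each. The authors deposited model-based expression indices on the log2 scale, and the submitters' processing notes name R 2.7.2. How arrays were normalized to each other stays unknown (not given in the sources used here). The median level of an array ranged from 7.09 to 7.16, and the log2 3′ to 5′ ratios between 1.14 and 1.19 for Actb and between 0.11 and 0.18 for Gapdh. The number of arrays limits the precision. Control probe sets (64) were left out. Of the rest, 34945 had 1 gene symbol, 932 several and 9160 were unnamed in the annotation used.

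The rank product, the study's test, used 16 pairs of arrays, 1000 permutations and an FDR under 0.1 (Python 3.11.15, numpy 2.4.6, scipy 1.17.1). It was followed by limma 3.58.1 in R 4.3.3 at an adjusted p under 0.1 and by two-sided exact permutation tests, and the code was tested on simulated data. A gene was represented by its probe set of highest mean level. Promoter sequences came from RefSeq (GRCm38.p6). The genes and lists were chosen with earlier results of these data known. Named were all probe sets of the 10 genes, called genes and the largest difference of each list, and the 10 genes most like the collagens. Gfap, Hand2, Ank3, Tcf21, Alb, the type V collagen chains, Col6a1, Col14a1, Pcolce, Bco1, Lpl and Cyp26a1 were added after their values were seen. The alternatives were other scalings, thresholds and filters, the replicate number as a block, and leaving out each mouse, the last chosen after seeing the data for the correlations.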

Additional observations from a re-analysis of the deposited data

Results flagged for a closer look

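Single mice stood far from the other 3 of their group, by the ratio of the gap to the group's range against Dixon's critical value for 4 samples, in 3 of 40 groups of the 20 probe sets and in 2 of 28 groups of named list genes, and chance marks about 1 group in 20. Acta2 1416454_s_at was at 8.27 in CD replicate 3, against 7.94 to 7.97 in the other CD mice. Lrat 1444487_at was at 8.33 in CD replicate 4, against 8.07 to 8.11 in the other CD mice. Dcn 1441506_at was at 6.91 in PD replicate 3 and at 6.83 to 6.84 in the rest of the PD mice. Rarb was at 7.47 in PD replicate 4 and at 7.00 to 7.01 in the rest of the PD mice. P3h1 was at 8.14 in CD replicate 3, against 8.18 to 8.19 in the other CD mice. The Col3a1 value of CD replicate 3 was not among them.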

How the results depend on the processing

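Of 313 values of the 20 differences under the alternatives, 308 stayed on the same side of the threshold, 4 lost the call of Col3a1 and 1 added that of Lrat, all with a mouse left out. With 1 mouse left out, the rank product called 27 to 190 probe sets higher and 16 to 207 lower, and 0 to 2 of the 20. At an FDR under 0.05 it called 55 lower. Limma called 1 lower without PD replicate 2 and 0 under its other alternatives. The collagen difference ranged from 0.11 to 0.28, that of the other 7 genes from 0.05 to 0.10, and the gap from 0.05 to 0.18 with a mouse left out. The replicate numbers did not pair the mice, with correlations of same-numbered deviations between −0.06 and −0.00. With the number as a block the rank product called 109 higher, 103 lower and 1 of the 20 (Col3a1, FDR 0.0292), and limma 0. Without CD replicate 3, 7 of the 20 had an unadjusted limma p under 0.05, against 2 with all mice or with any other mouse left out. Over all probe sets 2644 had such a p without CD replicate 3, against 1642 with all mice. The medians of the lists of portal fibroblast markers and of hepatocytes, both −0.00, were 0.01 with arrays centred on their medians.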
